A study of Homo sapiens with 18 samples.

Results

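RNU11, RNU12, RNU4ATAC and RNU7-1 are single-copy genes that RNA polymerase II (Pol II) transcribes into small nuclear RNAs (snRNAs). These 4 genes, of 154 snRNA genes and 59098 genes in all in the RefSeq table used, were chosen by name. No measured value entered the choice, but earlier results of these data were known when it was made. Peaks within 3 kb of each gene were taken from chromatin immunoprecipitation sequencing (ChIP-seq) of INTS11-AID cells. These are HCT116 cells, an established human colon cancer line, in which a degron makes the Integrator endonuclease INTS11 degradable by auxin (IAA). Pol II, the tyrosine 1 phosphorylated form of its C-terminal domain (Tyr1P) and the serine 2 phosphorylated form (Ser2P) were each precipitated in 2 numbered IAA and 2 numbered Control libraries. There were also 4 unnumbered Pol II libraries, 1 for each of the labels IAA, EGF (a growth factor), IAA+EGF and Control, and 2 inputs. All groups are of the INTS11-AID line. A single protocol text covers all samples and names serum withdrawal (14 h), IAA (500 µM, 1 h), EGF (100 ng/µl, 30 min) and interferon beta (2000 U, 1 h). It does not assign them to libraries, so each library goes by its title. Nothing in the labels says that replicates came from separate cultures, so p-values measure only the spread between these libraries. Controls are cells of the same line without IAA by label, so effects of auxin itself and of INTS11 loss cannot be told apart.

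U11 and U12, the RNAs of RNU11 and RNU12, recognise the splice site and the branch site of a rare class of introns and thereby start the minor spliceosome. U4atac, the RNA of RNU4ATAC, pairs with U6atac and brings it to that spliceosome. U7, the RNA of RNU7-1, is the core of the particle that cleaves the ends of replication-dependent histone transcripts. Genes of this kind have no polyadenylation signal. Integrator cleaves their nascent transcripts shortly downstream of the mature RNA, and Pol II then leaves the template.

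All coordinates are from RefSeq on GRCh38.p14, and the peak lists use hg38. RNU11 lies on chromosome 1 from 28648600 to 28648734, inside the lncRNA gene TAF12-DT and 331 bp above the end of the TAF12 interval in coordinates. RNU12 lies on chromosome 22 from 42615244 to 42615393, between POLDIP3, whose minus-strand start is 361 bp before that of RNU12, and CYB5R3, a minus-strand gene whose far end begins 2596 bp after the RNU12 start. RNU4ATAC lies on chromosome 2 from 121530880 to 121531009, inside CLASP1, a minus-strand gene for a microtubule-binding protein, and inside the lncRNA gene CLASP1-AS1. RNU7-1 lies on chromosome 12 from 6943816 to 6943878, inside the C12orf57 interval, with the listed start of C12orf57 206 bp after its own and that of the phosphatase gene PTPN6 at 2761 bp. The tables used give no exons, so exonic or intronic position was not assigned. All 4 genes were taken as plus-strand genes from general knowledge, because the tables give no strand for snRNA genes. Positions below count from the gene start, and negative positions are upstream.

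RefSeq promoter windows gave the sequence around 2 of the 4 genes, and both are shown because the peaks with IAA begin in or beside them. The first is chr12:6943772-6944021 on the plus strand, with the 63 bases of RNU7-1 in capitals, followed by the 143 bases that lead to the listed C12orf57 start. The second is chr22:42614884-42615133 on the minus strand, the DNA before the POLDIP3 start, which ends 110 bases short of RNU12. Its capitals mark the 36 bases that lay in the RNU12 peak of both Pol II Control libraries.
RNU7-1 window: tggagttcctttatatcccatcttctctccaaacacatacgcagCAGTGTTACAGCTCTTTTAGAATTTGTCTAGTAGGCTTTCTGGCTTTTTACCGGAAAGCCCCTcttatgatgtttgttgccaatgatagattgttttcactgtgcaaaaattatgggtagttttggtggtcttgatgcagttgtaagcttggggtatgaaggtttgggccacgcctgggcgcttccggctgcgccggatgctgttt
POLDIP3 window: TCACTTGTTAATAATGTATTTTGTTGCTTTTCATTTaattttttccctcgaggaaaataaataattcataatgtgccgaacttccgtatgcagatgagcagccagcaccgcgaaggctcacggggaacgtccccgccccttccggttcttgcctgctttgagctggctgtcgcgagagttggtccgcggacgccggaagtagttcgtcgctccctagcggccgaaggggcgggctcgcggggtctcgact
The letters of the Sm-protein binding site of U7 RNA, AATTTGTCTAG, were read from the plus strand of RNU7-1 itself, so its match there was fixed in advance. They occurred in 3 of 35116 RefSeq windows of 250 bases on either strand, and the window shown here is among these. The octamer ATGCAAAT, a binding sequence of the factor POU2F1 known from snRNA enhancers, was in neither window and in 1.63% of all windows. The first window holds only 44 bases before RNU7-1, so it cannot show whether an octamer lies farther upstream of that gene. Of the POLDIP3 window, 0 bases lay in a peak of either Pol II IAA library.

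The 16 immunoprecipitated lists held 15420 to 99476 peaks, and the depth estimated from them was 2.94 to 13.6 fragments per kb. Neither input list had a peak within 3 kb of the 4 genes. Of 7 colon epithelial markers 5 (EPCAM, KRT8, KRT18, CDX2 and CDH1) had a Pol II peak within 1 kb of an end of the gene in both Control libraries, against 1 of 5 blood markers and 0 of 4 fibroblast markers. The degron acts on protein, so no value here checks the loss of INTS11. For the unnumbered libraries labelled IAA and EGF the title and the file name give different treatments, and the values at these 4 genes, given below, go against the titles. The comparisons of IAA with Control use the numbered libraries, and the unnumbered ones, 1 per label with titles in doubt, enter only as an alternative. That alternative ends the Pol II calls, as given below.

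The first question was where Pol II peaked at these genes with and without IAA. With IAA, Pol II summits lay 225 to 964 bp farther downstream at all 4 genes than in Control, where they lay on the gene or just past it. The peak nearest to the gene start ended at 1319 to 2945 bp with IAA and at 703 to 985 bp in Control. Separate peaks farther downstream were also called, ending at 3642 and 3651 bp at RNU4ATAC with IAA. At RNU7-1 a separate Control peak, beside the PTPN6 start, ended at 2948 and 2946 bp.

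**Figure D1:**
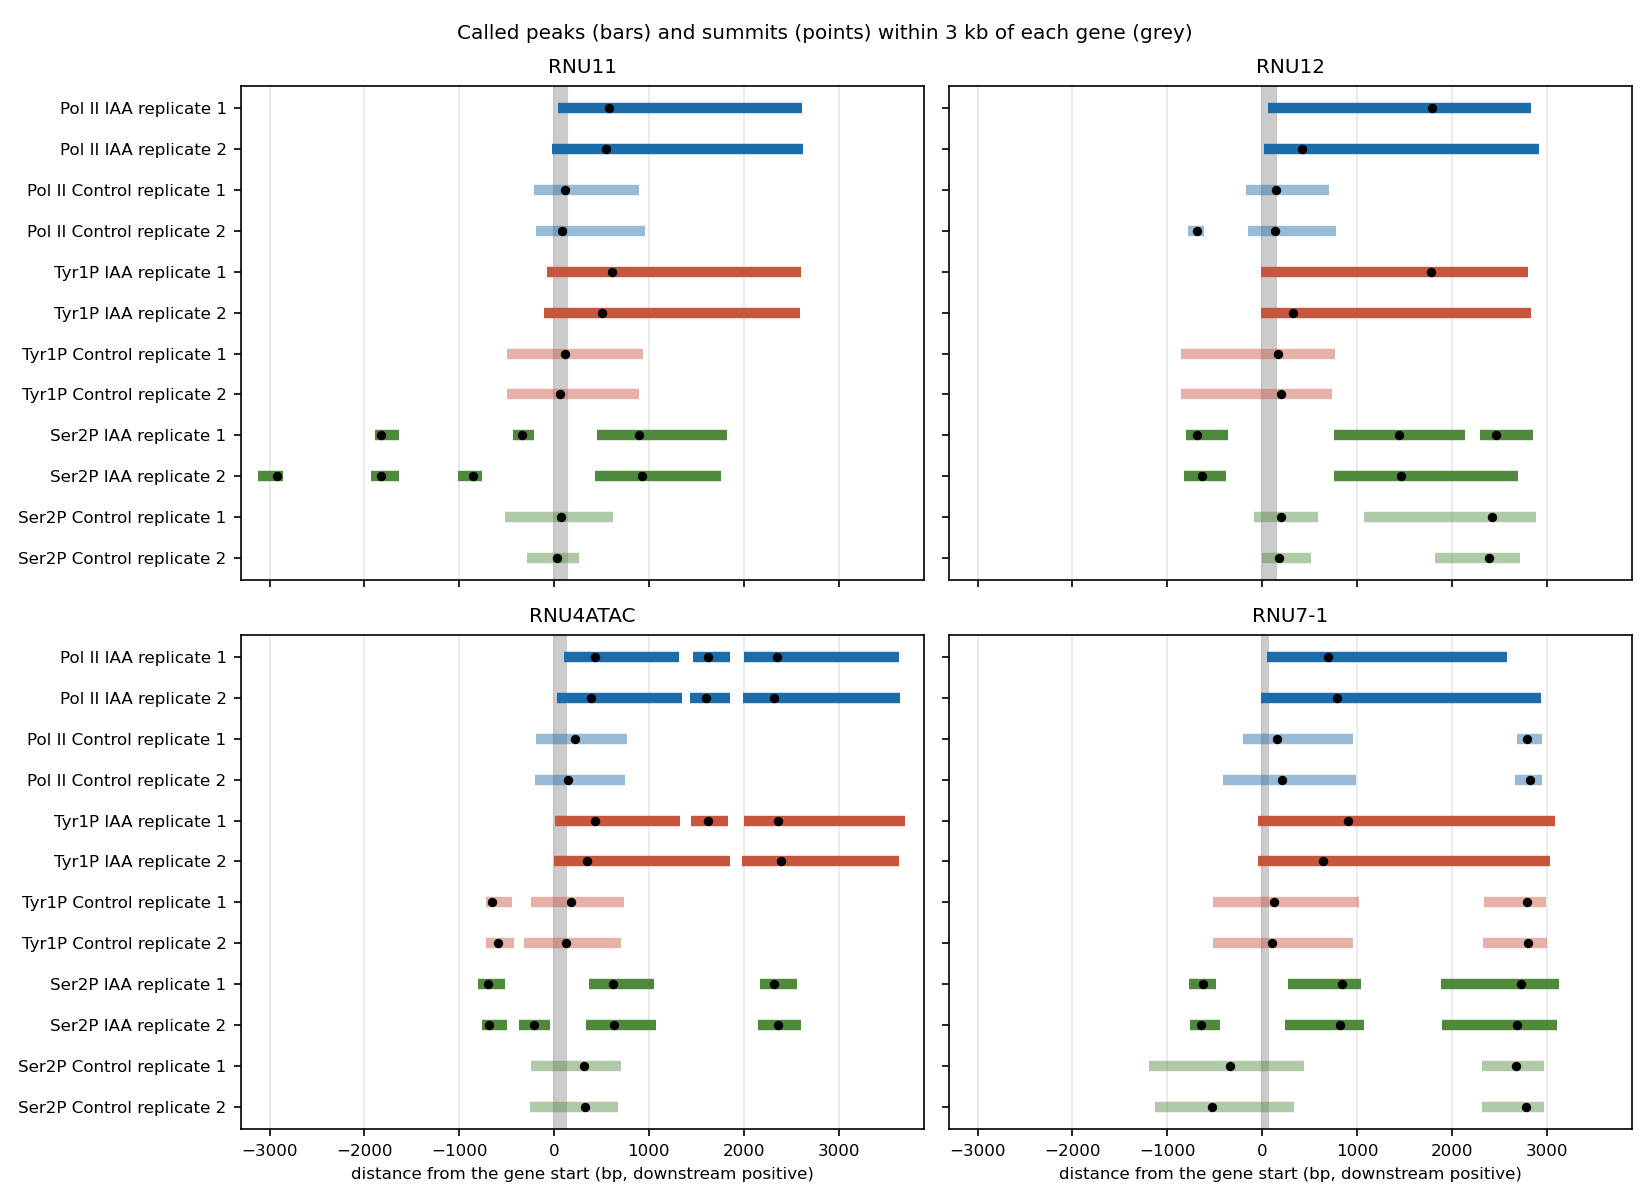
Peaks called in each numbered library within 3 kb of the 4 genes; the horizontal axis is the distance from the gene start in bp, bars are peak extents, black points summits and grey bands the genes, with IAA libraries above Control libraries of the same antibody. Pol II and Tyr1P bars with IAA begin near the gene and end far downstream, and Ser2P bars with IAA leave the grey bands uncovered.

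At RNU11, the nearest Pol II summits were at 576 and 550 bp with IAA, against 115 and 88 bp in Control. The groups did not overlap, and the mean was 563 ± 18.4 bp with IAA and 101.5 ± 19.1 bp in Control (SD, n = 2 each; exact permutation p = 0.333). With 2 libraries against 2, this two-sided exact test cannot go below p = 0.333, and every comparison in which the groups do not overlap has this value. At RNU7-1 the summits were at 693 and 794 bp with IAA, against 152 and 213 bp in Control, again without overlap (743.5 ± 71.4 bp with IAA and 182.5 ± 43.1 bp in Control, SD, n = 2 each). From the listed C12orf57 start these same summits lay at 487 and 588 bp with IAA, against -54 and 7 bp in Control. The RNU7-1 peaks of Pol II, and likewise those of Tyr1P, thus cannot be told apart from peaks of C12orf57. The same holds for Ser2P, with nearest summits 631 and 616 bp from the C12orf57 start with IAA, against -550 and -732 bp in Control. At RNU4ATAC, whose RNA is altered in a hereditary form of dwarfism, the nearest summits were at 431 and 387 bp with IAA, against 219 and 149 bp in Control. This was the smallest difference of the 4, 225 bp, and the groups did not overlap. At RNU12 the summits were at 1790 and 425 bp with IAA, against 147 and 140 bp in Control. Both IAA values lay above Control, but they differed from each other by more than the lower one differed from Control, so the mean of 1107.5 ± 965 bp (SD, n = 2) has a wide error.

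All 4 genes thus met the rule used for calls in this text, no overlap of the groups and a difference of at least 200 bp in the mean. Over all RefSeq genes with a listed start and a summit within 3 kb in all 4 Pol II libraries, 1100 of 10774 met it in the downstream direction, 10.2%, and 8.98% in the upstream direction. By the peak of highest −log10 q, 4 of 4 were called downstream as well, against 9.76% of all genes. The median difference over all these genes was 30.5 bp. A smaller difference than that of RNU4ATAC was found at 89.5% of genes, and than that of RNU12 at 99.1%. When the unnumbered IAA and Control libraries, as labelled, were added, 0 of the 4 genes met the rule. Without Control replicate 2 the count was 3, as RNU4ATAC then differed by less than 200 bp.

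**Figure D2:**
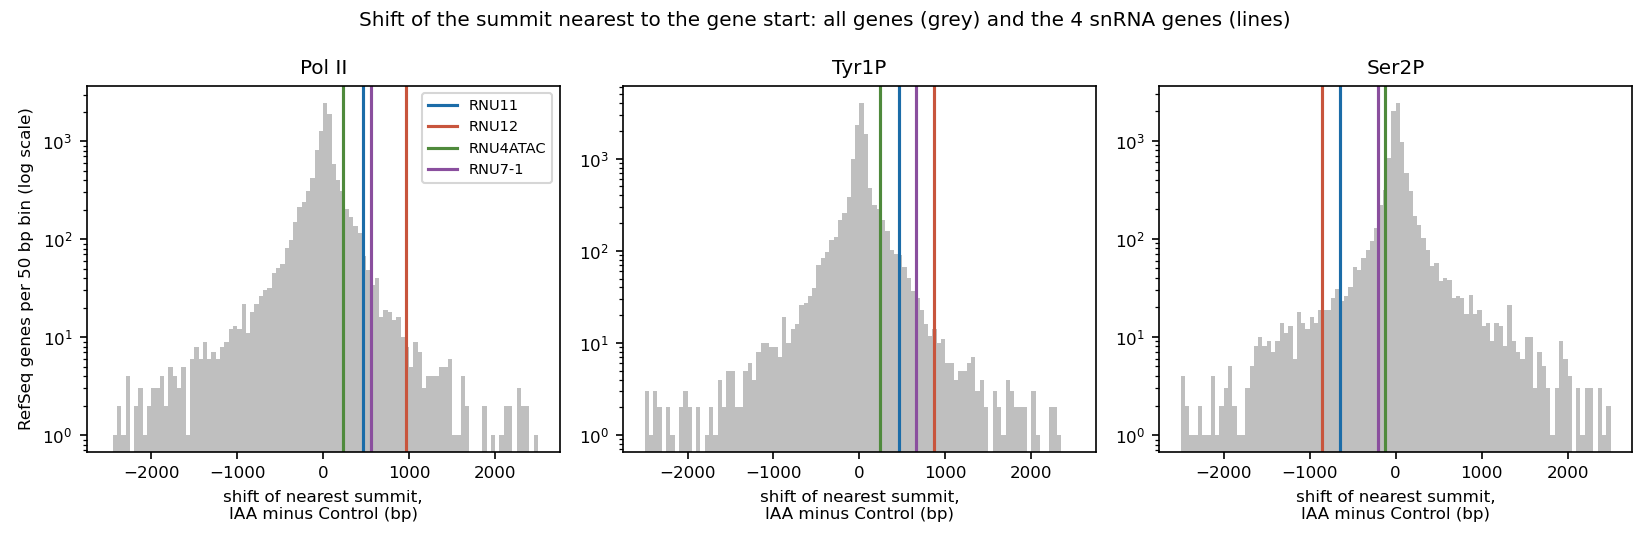
Histograms over all tested RefSeq genes (grey) of the difference, IAA minus Control in bp, in the mean position of the summit nearest to the gene start, on a log count axis, for each antibody, with the 4 snRNA genes as vertical lines. For Pol II and Tyr1P the 4 lines stand to the right of the centre, between 225 and 964 bp, and for Ser2P to the left.

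The length covered by Pol II peaks in the 3 kb downstream of the gene end separated the groups further. At RNU12 it was 2686 and 2775 bp with IAA, against 554 and 627 bp in Control. At RNU4ATAC it was 2710 and 2772 bp with IAA, against 640 and 624 bp in Control. At RNU11 it was 2483 and 2489 bp with IAA, against 765 and 820 bp in Control. The groups did not overlap at any of these genes, and both IAA values filled most of the window. At RNU7-1 the covered length was 2522 and 2883 bp with IAA, against 1158 and 1206 bp in Control, and the Control values include a separate peak with summits at 2798 and 2823 bp, beside the PTPN6 start. Counted from the gene start, the covered length was longer in both IAA libraries at 4 of 4 genes, against 36.1% of all genes.

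**Figure D3:**
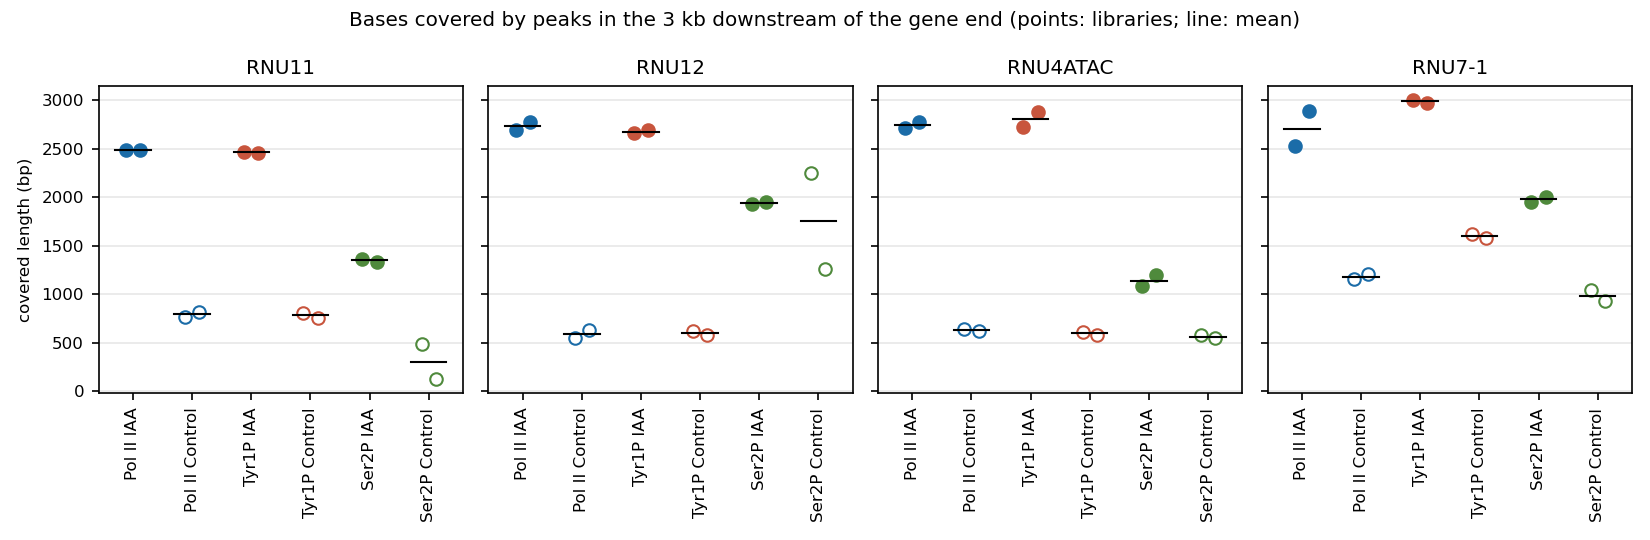
Bases covered by peaks in the 3 kb downstream of the end of each gene, in bp, for the libraries of each antibody, IAA (filled points) left of Control (open points), with lines at the mean. Pol II and Tyr1P values with IAA lie between 2456 and 3000 bp and those in Control between 554 and 1615 bp.

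Upstream of the genes the order was the opposite. Pol II peaks covered 0 and 25 bp of the 3 kb upstream of RNU11 with IAA, against 212 and 186 bp in Control. At RNU12 and RNU4ATAC no upstream base was covered with IAA, whereas 172 to 319 bp were covered in Control. At RNU7-1 the values were 0 and 14 bp with IAA, against 206 and 414 bp in Control. The upstream length was thus shorter in both IAA libraries at 4 of 4 genes, against 35.7% of all genes. The start of the gene lay in a peak in 2 of 8 values with IAA, those of IAA replicate 2 at RNU11 and RNU7-1, and in 8 of 8 in Control. Of the 4 genes, all covered at the start in both Control libraries, 2 were covered in neither IAA library, against 17.3% of the 9523 genes so covered in Control, and at all 4 without IAA replicate 2. This measure was added after the peak lists had been seen. In Control replicate 2 a small separate peak with its summit at -687 bp, past the POLDIP3 start, was also called at RNU12, and the other Pol II libraries of both groups had none there.

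At the end of the wide domains the 4 genes differed. With IAA the RNU11 peak ended at 2617 and 2623 bp and the RNU12 peak at 2835 and 2924 bp, inside the CYB5R3 interval, which begins at 2596 bp. At RNU4ATAC the region was called as 3 peaks in both IAA libraries, with gaps after 1319 and 1346 bp and again after 1853 and 1857 bp, and the last peak reached 3642 and 3651 bp, past the end of CLASP1-AS1 at 2786 bp. In IAA replicate 1 the peak with the highest deposited −log10 q at this gene was the one at 2349 bp, not the one nearest to the gene. At RNU7-1 the domain ended at 2584 and 2945 bp and passed the end of the C12orf57 interval at 2187 bp. In IAA replicate 2 it also took in the PTPN6 start, where Control had its own peak.

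Peak heights were described within each list. The authors' fold enrichment at the summit, a value of each peak within its own list, was 3.23 to 4.64 over the 4 genes with IAA and 8.61 to 14.8 in Control. By −log10 q these peaks ranked 112 to 1373 within the IAA lists and 12 to 111 within the Control lists, which differ in length. As a share of its own list the rank was 0.613% to 5.82% with IAA and 0.0524% to 0.397% in Control. A rank holds within its own list, and this difference was not tested. The fragments stacked at the summit, recovered from the fold and p, were 267 to 396 with IAA and 311 to 365 in Control, so the groups overlapped. They stood at 68.1% to 100% of the highest possible stack with IAA and 85.8% to 99.4% in Control, and heights at that limit cannot be told apart. What this limit does to the position of a summit was not tested.

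Divided by the genome-wide background of each library, summit levels of Pol II were lower in both IAA libraries at 3 of the 4 genes, against 68.0% of all genes, so the count is near that of genes at large. At RNU7-1 the level was 388 and 330 times that background with IAA, against 616 and 342 times in Control, and the groups overlapped. Control replicate 1, the shallowest Pol II library, gave 584 to 654 times at the 4 genes, and Control replicate 2 gave 336 to 348 times. The Control libraries thus differed in depth and in level together, and its part in the result was not tested. The local background that the peak caller set around the same summits, relative to that genome-wide background, went the other way. It was 60.8 and 78.1 times at RNU11 with IAA, against 48.8 and 30.4 times in Control, and 82.1 and 95.1 times at RNU4ATAC with IAA, against 37.8 and 24.2 times in Control. It was higher in both IAA libraries at all 4 genes, by 1.75 to 2.86 times in the mean (exact permutation p = 0.333 for each, n = 2 libraries a group), against 16.1% of all genes. The width over which it was taken is not stated in the labels.

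The second question was whether Tyr1P, a mark of the same polymerase domain, followed the same course. Tyr1P summits with IAA lay 240.5 to 868 bp downstream of those in Control at the 4 genes, and the RNU11 and RNU12 domains ended at 2590 to 2836 bp. At RNU11 the nearest summits were at 606 and 506 bp with IAA, against 117 and 63 bp in Control. At RNU12 they were at 1780 and 328 bp with IAA, against 169 and 203 bp in Control. The far RNU12 summit was in the library numbered 1 for Pol II and for Tyr1P. At RNU4ATAC they were at 436 and 352 bp with IAA, against 183 and 124 bp in Control, and at RNU7-1 at 903 and 640 bp with IAA, against 127 and 106 bp in Control. No pair of groups overlapped.

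All 4 genes met the call rule for Tyr1P, against 7.79% of 13028 genes in the downstream direction and 6.28% in the upstream direction. By the highest −log10 q the count was also 4 of 4, against 7.22%. Without IAA replicate 1 the count was 2, since RNU12 and RNU4ATAC then differed by less than 200 bp. Tyr1P peaks covered 2456 to 3000 bp of the 3 kb downstream with IAA and 582 to 1615 bp in Control. At RNU4ATAC, for example, these lengths were 2722 and 2880 bp with IAA, against 609 and 582 bp in Control. Upstream they covered 0 to 101 bp with IAA and 493 to 859 bp in Control. Counted from the start, the downstream length was longer at 4 of 4 genes, against 32.9% of all genes, and the upstream length shorter at 4 of 4, against 38.7%. At RNU12 the upstream values were 12 and 13 bp with IAA, against 859 and 855 bp in Control, so the Control peak passed over the POLDIP3 start and the IAA peak did not reach the POLDIP3 window. The Tyr1P domain still covered the start of RNU11, RNU12 and RNU7-1 with IAA and began at 14 and 3 bp at RNU4ATAC, the 1 gene of 4 whose start was covered in both Control libraries and neither IAA library, against 6.64% of the 11275 genes covered at the start in both Control libraries. Tyr1P summit levels were lower in both IAA libraries at 4 of 4 genes, against 87.5% of all genes, so the count is near that of genes at large. Their stacks were likewise close to the limit, at 75.3% to 95.7% with IAA and 92.3% to 97.2% in Control. At RNU7-1 the stacks overlapped, with 406 and 425 fragments with IAA, against 395 and 410 in Control. The lower level there rests on the genome-wide background, 1.60 and 1.56 fragments with IAA, against 1.36 and 1.49 in Control. At RNU11, RNU12 and RNU4ATAC the stacks were lower with IAA as well. The local background at the Tyr1P summits was higher at 4 of 4 genes, by 1.73 to 2.85 times in the mean, against 17.2% of all genes.

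**Figure D4:**
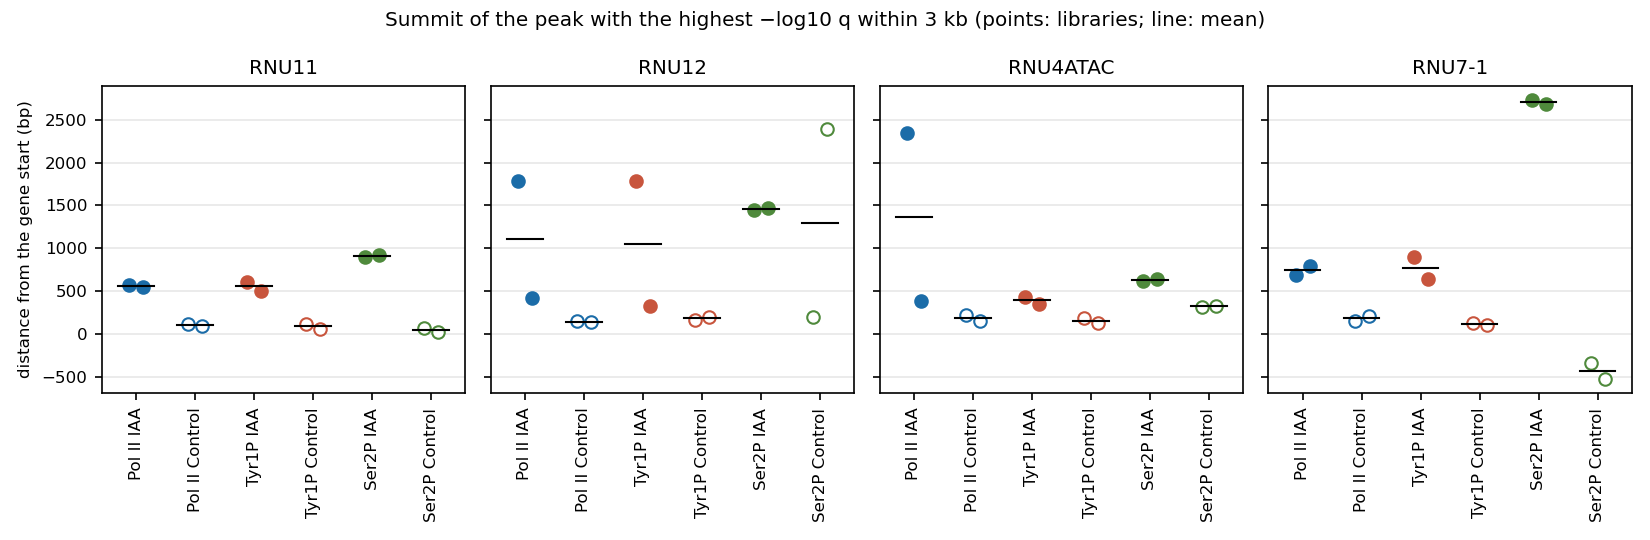
Position of the summit of the peak with the highest −log10 q within 3 kb of the gene start, in bp, for each library, IAA (filled points) left of Control (open points), with lines at the mean of 2 libraries. Values with IAA lie above Control in each panel except Ser2P at RNU12, where 1 Control point is at 2393 bp.

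The third question was where Ser2P, which marks Pol II in productive elongation, was called. With IAA no base of any of the 4 genes lay in a Ser2P peak in either library, and Ser2P was called in separate peaks upstream and downstream. In Control a Ser2P peak covered each of the 4 genes completely in both libraries. The start was covered in both Control libraries and neither IAA library at 4 of 4 genes, against 46 of the 6413 genes covered at the start in both Control libraries, 0.717%. This measure too was added after the lists had been seen. The 2 IAA lists were at the same time the longest of the series, with 99476 and 88987 peaks, against 37442 and 15420 in Control.

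The peak with the highest −log10 q near RNU11 had its summit at 895 and 924 bp with IAA, against 70 and 29 bp in Control. It began at 455 and 432 bp with IAA, so the bases between the gene end and these positions lay in no Ser2P peak. At RNU4ATAC this summit was at 617 and 637 bp with IAA, against 320 and 328 bp in Control. Its Control Ser2P peaks ranked 87 and 363 in their lists, ahead of those at the other 3 genes. At RNU12 the peak began at 762 and 754 bp with IAA and had summits at 1442 and 1468 bp. In IAA replicate 1 a second peak had its summit at 2467 bp, near the far end of CYB5R3, and in IAA replicate 2 the first peak itself ran to 2701 bp. In Control a peak on the gene had summits at 202 and 183 bp, and a second one lay at 2428 and 2393 bp. At RNU7-1 there were peaks with summits at -626 and -646 bp and at 837 and 822 bp with IAA. In Control there was instead 1 peak, from -1198 and -1135 bp to 444 and 336 bp, with its summit upstream of the gene at -344 and -526 bp. The peak at the PTPN6 start was present in all 4 libraries, at 2730 and 2685 bp with IAA and 2682 and 2777 bp in Control.

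Because upstream peaks were called with IAA, the summit nearest to the gene start was an upstream one at RNU11 (-335 and -857 bp), RNU12 (-682 and -638 bp) and RNU7-1 (-626 and -646 bp), against 70 and 29 bp, 202 and 183 bp, and -344 and -526 bp in Control. By this measure 0 genes were called downstream and 3 upstream, against 8.52% and 6.25% of 9345 genes. By the peak of highest −log10 q, 3 of the 4 were called downstream, against 7.26% of all genes, and with lists of equal length the nearest summit was called downstream at all 4. RNU12 was not called by the highest −log10 q, because in Control replicate 2 the peak at 2393 bp outranked the one on the gene. RNU7-1 was called through the peak at the PTPN6 start, which ranked first with IAA. That peak was also present in both Control libraries, where the peak over the gene outranked it. The upstream peaks had fold enrichments of 1.82 to 2.96 within their lists. Their summits at RNU11 and RNU12 lay inside the TAF12 and POLDIP3 intervals, so they cannot be told apart from peaks of these neighbours. Ser2P peaks covered 1367 and 1333 bp of the 3 kb downstream of RNU11 with IAA, against 486 and 126 bp in Control. At RNU7-1 the lengths were 1953 and 2003 bp with IAA, against 1043 and 927 bp in Control. At RNU12 the groups overlapped, with 1932 and 1948 bp with IAA, against 2253 and 1255 bp in Control. Counted from the gene start, the length was longer in both IAA libraries at 3 of 4 genes, close to the 72.3% of all genes, and the upstream length was shorter in both at 1 of 4, against 6.19%.

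The nearest Ser2P summits had levels of 44.8 and 42.7 times the genome-wide background at RNU11 with IAA, against 43.1 and 45.5 times in Control, and the groups overlapped there, at RNU4ATAC and at RNU7-1. The level was lower in both IAA libraries at 1 of 4 genes, RNU12, against 2.10% of all genes. The local background was higher at 4 of 4, against 71.4%. Their stacks were at most 50.4% of the limit, well below it. By the highest −log10 q with IAA, both Ser2P summits lay downstream of both Pol II summits at RNU11 (895 and 924 bp for Ser2P, 576 and 550 bp for Pol II) and at RNU7-1 (2730 and 2685 bp for Ser2P, at the PTPN6 start, 693 and 794 bp for Pol II). The antibodies overlapped at RNU12, with 1442 and 1468 bp for Ser2P and 1790 and 425 bp for Pol II. They also overlapped at RNU4ATAC, with 617 and 637 bp for Ser2P and 2349 and 387 bp for Pol II. Separate lists are set side by side here, and this difference between antibodies was not tested.

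The unnumbered Pol II libraries, 1 per label, allow no test. In the order of the labels IAA, EGF, IAA+EGF and Control, the nearest summit at RNU11 was at 109, 404, 595 and 24 bp, and at RNU12 at 151, 348, 319 and 151 bp. At RNU4ATAC it was at 179, 261, 285 and 88 bp, and at RNU7-1 at 196, 359, 301 and 121 bp. The more distant summits at all 4 genes were those of the labels EGF and IAA+EGF, and the library labelled IAA lay nearer to Control. The covered length downstream showed the same split. At RNU12 it was 543, 2431, 2619 and 479 bp in that order of labels, and at RNU4ATAC 535, 2511, 2624 and 518 bp. Upstream, RNU12 peaks covered 827, 50, 46 and 790 bp. The library labelled IAA thus lay outside the range of the numbered Pol II IAA libraries, 2483 to 2883 bp over the 4 genes, at each gene, with 535 to 1590 bp. The library labelled EGF had 1694 to 2968 bp and lay inside that range only at RNU4ATAC, with lower values at RNU11 and RNU12 and a higher one at RNU7-1. With these titles, no direction is drawn here for EGF or for IAA under EGF. The RNU4ATAC domain of these libraries was broken at about the places seen in the numbered IAA libraries, after 1301 bp and 1822 bp for the label EGF and after 1309 bp and 1808 bp for IAA+EGF.

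**Figure D5:**
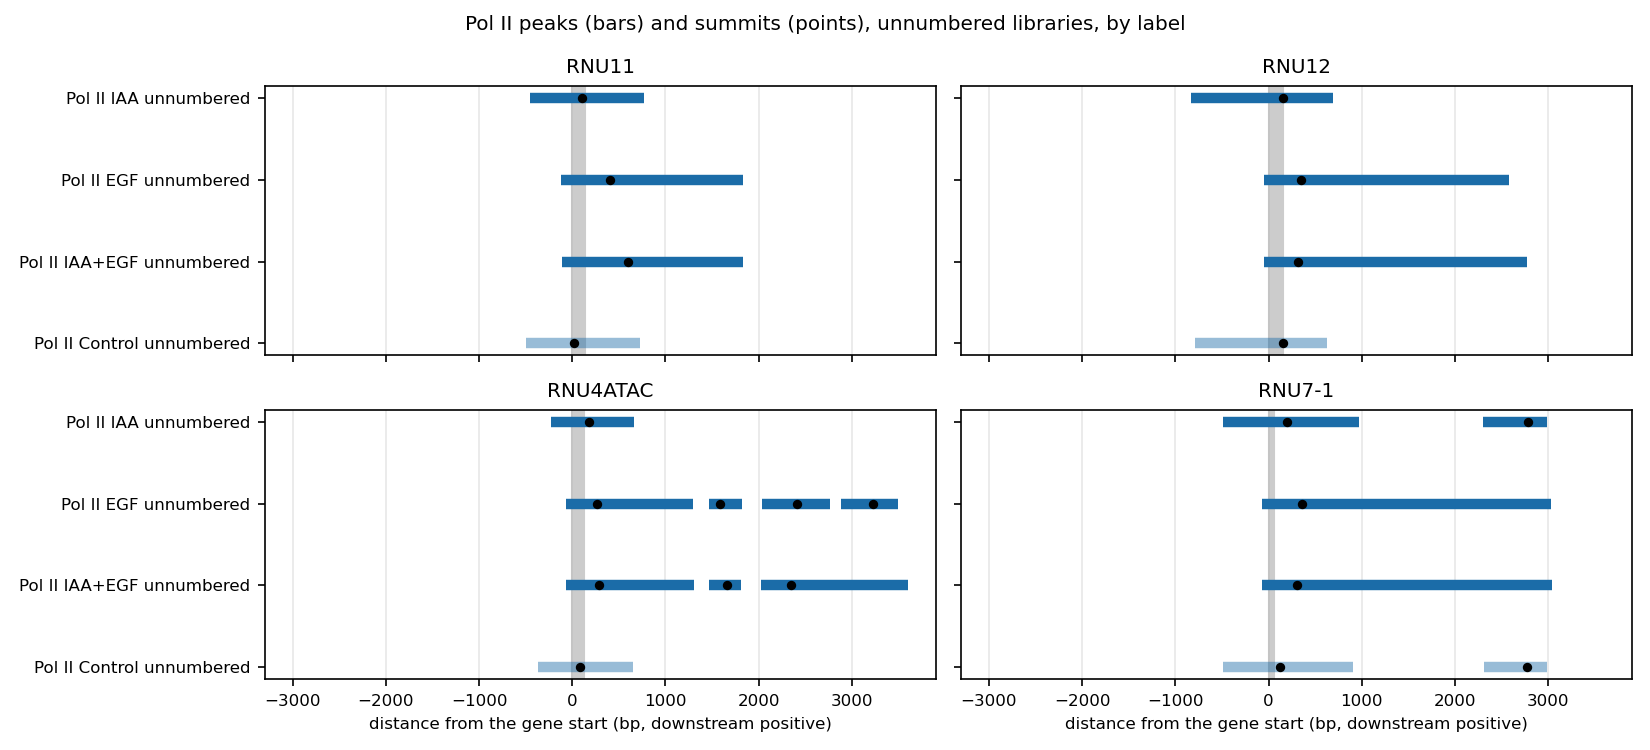
Pol II peaks (bars) and summits (black points) within 3 kb of the 4 genes (grey bands) in the unnumbered libraries, by their labels, against the distance from the gene start in bp. Bars of the labels EGF and IAA+EGF reach far downstream, to 1828 bp or more, and those of the label IAA end at 664 to 970 bp, apart from the peak at the PTPN6 start.

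Other snRNA genes of Pol II were compared by the distance of the nearest summit from the gene, in either direction. Of 13 genes for U1, U2, U4 and U5 RNAs, 12 had Pol II summits farther from the gene with IAA, without overlap of the groups and by at least 200 bp in the mean, and 11 did for Tyr1P and 11 for Ser2P. By this rule on the distance from the gene the 4 single-copy genes counted 4, 4 and 3. For Ser2P the 3 were RNU11, RNU12 and RNU7-1, where the summits nearest to the start lay upstream with IAA. With IAA, RNU4-1 and RNU4-2 shared the same Pol II peak (levels of 281 and 295 times the genome-wide background), so these genes do not count independently. The share of all genes that meet this unsigned rule was not computed, so these counts have no genome-wide measure beside them. The median Pol II distance was 597 bp with IAA and 36 bp in Control for the 13 genes, and 429 bp with IAA and 10 bp in Control for the 4. Reads at multi-copy snRNA genes can be shared between near-identical copies, and the single-copy genes have pseudogenes. How such reads were counted is not stated in the sources at hand. A Ser2P peak touched the gene in both Control libraries and neither IAA library at 9 of the 13, and at 4 of the 4 single-copy genes. For this rule too the share of all genes was not computed. RNA genes of Pol III, whose transcripts end without Integrator, are a contrast. Of 11 of them, 9 had a Pol II summit within 3 kb in all 4 libraries and 2 met the distance rule. For Tyr1P 2 of 10 met it and for Ser2P 0 of 5. RNU6ATAC, the Pol III gene of the minor spliceosome's U6atac, had no Pol II summit within 3 kb in either IAA library and one in both Control libraries, 598 and 0 bp from the gene. Its Ser2P summits were 727 and 722 bp away with IAA, and none was within 3 kb in Control.

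The protein genes of these pathways were examined at their own starts. Of 16 listed minor spliceosome proteins 13 had a listed start, and all 13 had a Pol II peak within 1 kb of it in all 4 libraries, against 36.3% of all genes. For Tyr1P it was also 13, against 43.6%, and for Ser2P 10, against 30.2%. Of these genes, 0 gained or lost such a peak for Pol II (0.298% and 2.68% of all genes), for Tyr1P (0.371% and 1.32%) or for Ser2P (5.98% and 0.221%). For Pol II, 0 of 13 were called downstream, against 10.2% of all genes, and 1 upstream, against 8.98%, TXNL4B with a difference of -455 bp. For Tyr1P, 2 of 13 were called downstream, against 7.79%, RNPC3, which binds U12 RNA, by 237 bp and ZRSR2, which recognises the acceptor splice site, by 229.5 bp. TXNL4B was the 1 called upstream for Tyr1P, against 6.28%, with -255 bp. For Ser2P, 3 of 11 were called downstream, against 8.52%, RNPC3 by 341 bp, TXNL4B by 292.5 bp and SNRNP48 of the U11 particle by 1166.5 bp.

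Of 9 listed genes of the U7 particle and histone transcript processing 8 had a listed start. For Pol II 0 were called, against 10.2% of all genes downstream and 8.98% upstream. NPAT, a coactivator of histone genes, was called downstream for Tyr1P by 281.5 bp, as 1 of 8, against 7.79% of all genes. It was called upstream for Ser2P, by -344 bp, as 1 of 4, against 6.25%. Of 11 listed genes of snRNA transcription 10 had a listed start. For Pol II, 3 of these were called downstream, against 10.2% of all genes, ICE1 by 347 bp, SNAPC3 (a subunit of the snRNA promoter-binding complex) by 351.5 bp and POU2F1 by 364.5 bp. SNAPC2, a further subunit of that complex, was the 1 of 10 called upstream for Pol II, against 8.98%, with -1560.5 bp. For Tyr1P, 2 of 10 were called downstream, against 7.79%, SNAPC3 by 365 bp and POU2F1 by 329.5 bp. For Ser2P it was 2 of 7, against 8.52%, POU2F1 by 230.5 bp and ZNF143 by 380 bp. For Ser2P, CPSF2, 1 of 8 in the histone list, and TBP, 1 of 10 in the snRNA list, gained a peak with IAA, against 5.98% of all genes.

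Among protein-coding genes, the largest downstream differences of the mean Pol II summit were at LMTK3 (3167 bp), PRKD2, ING1, SSH1 and TNFRSF1A (2618 bp), all above the highest of the 4 snRNA genes. At TNFRSF1A the summits were at 2593 and 2669 bp with IAA, against 8 and 18 bp in Control. These genes were ranked by the size of the difference between the same 4 libraries, and this rank says nothing of shared control.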

How the data were processed

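Peaks had been called for each sample. Per the submitters' processing notes, MACS2 2.2.7.1, Bowtie2 2.3.4.1, Trim Galore 0.6.6, deepTools 3.5.1 and Picard 2.25.7 were used with hg38. Options, filters and use of inputs are not given there. Every deposited list holds a score, a fold (a ratio to local background), −log10 p, −log10 q and summits for its peaks. These deposited values served only within a list. The lowest −log10 q was 1.31.

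No peak was removed. The 4 genes and the pathway lists were chosen with earlier results of these data known. Named are these genes, their neighbours, called genes of the pathway lists and the 5 largest downstream Pol II differences of protein-coding genes. Offsets run from the gene start to the nearest summit within 3 kb. The fragments stacked at a summit were solved from the deposited fold, whose terms were each taken with 1 added, and from the Poisson p. Whole numbers gave p to a relative 0.0002 at 100% of peaks in the immunoprecipitated lists. The lowest background that several peaks share was taken as genome-wide. The stack limit was 2 fragments per position over the shortest peak. All genes means RefSeq genes among 27195 with a listed start (the most upstream) that had a summit within 3 kb in all 4 libraries, or all 27195 for pathway peaks. Exact permutation, two-sided, was run in Python 3.11.15 with numpy 2.4.6 for 156 comparisons of a measure at a gene. Of these, 36 were of the main offset, level and covered length. As 2 libraries against 2 cannot pass 0.05, no adjusted p is given. The calling was tested on simulated data, where 9 of 26995 unshifted genes were called downstream. Of 100 genes shifted by 250 bp, 88% were called. The spread between simulated libraries was preset and not taken from these data, so these rates need not hold for them. The lists hold no read totals, so intervals for depth are not given. Alternatives were stricter or equal lists, the window, the peak chosen, each library left out and a replicate block. Deviations of equally numbered libraries correlated at 0.0255, -0.0302 and 0.00201 across genes for Pol II, Tyr1P and Ser2P, so the numbers were not taken to pair samples.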

Additional observations from a re-analysis of the deposited data

Results flagged for a closer look

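With IAA, the summit nearest to the gene start lay downstream of Control for Pol II and Tyr1P and upstream of Control for Ser2P, in every library, at 3 of the 4 genes. The difference between antibodies was not tested. At RNU11 the Pol II difference exceeded that of Ser2P by 1107 bp and the Tyr1P difference by 1111.5 bp. At RNU12 these values were 1816.5 and 1720.5 bp, and at RNU7-1 they were 762 and 856 bp. At RNU12 the upstream Ser2P summits with IAA lay inside POLDIP3, 321 and 277 bp from its start. Those at RNU11 lay inside the TAF12 interval, which ends at -331 bp. At these genes they thus cannot be told apart from peaks of the neighbours. The upstream Ser2P summits belong to peaks separate from the downstream ones, so this contrast depends on which peak stands for the gene. With lists of equal length the Ser2P difference turned downstream at all 4 genes.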

How the results depend on the processing

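Positions of Pol II and Tyr1P kept their direction under every alternative that gave a value, while those of Ser2P depended on the peak chosen. RNU12 gave none in a 1 kb window for Pol II or Tyr1P. Unless a gene is named, values are the median over the 4 genes in each library, averaged over libraries, IAA minus Control, in bp, log2 for levels, or counts. For Pol II the offset was 414 (340.5 to 487.5 with 1 library left out), 717.5 by the highest −log10 q and 296 with the unnumbered libraries labelled IAA and Control added. With these added, 0 genes were called, 0 had lost the start, and the downstream length was 1329, against 1975.75 (1891 to 2060.5). In a 1 kb window the length was 287 for Pol II, 306 for Tyr1P (2042, 1994.5 to 2089.5) and 294.75 for Ser2P (870.5, 833.5 to 907.5). Called genes numbered 3 to 4 for Pol II, 2 to 4 for Tyr1P and 0 to 1 for Ser2P with 1 library left out, and genes with a lost start 2 to 4 for Pol II, 1 for Tyr1P and 4 for Ser2P. The Tyr1P offset was 460.25 (297.5 to 623). Levels were -0.58 (-1.003 to -0.15) for Pol II, -0.30 (-0.40 to -0.19) for Tyr1P and -0.25 (-0.51 to 0.0070) for Ser2P. Without Control replicate 1 the Pol II level of RNU7-1 turned to 0.064, against -0.78 without Control replicate 2.

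For Ser2P the offset was -682.25 (-763 to -601.5). At a −log10 q of at least 10 it was -114.75 (RNU4ATAC 303, RNU7-1 530.5), with 1 gene called, the level 0.15 (RNU12 0.15, RNU4ATAC 0.11, RNU7-1 0.47) and the length 1033.75. With lists of equal length it turned to 748.5 (RNU11 860, RNU12 1262.5, RNU4ATAC 303, RNU7-1 1264.5), with 4 called and the level 0.42 (0.49, 0.74, 0.11 and 0.89 in that order). By the highest −log10 q it turned to 1025 (860, 157.5, 303 and 3142.5), with 3 called and the level 0.36 (0.49, 0.60, 0.11 and 0.96). Without IAA replicate 2 the RNU4ATAC offset was 293 and the levels of RNU11 and RNU4ATAC 0.017 and 0.35. Without Control replicate 2 the levels of RNU11 and RNU7-1 were 0.022 and 0.093 and the RNU12 length -313, which was -46 in the 1 kb window. At the other end with 1 library left out, the RNU4ATAC offset was -540, the levels of RNU11, RNU4ATAC and RNU7-1 were -0.058, -1.52 and -0.27, and the RNU12 length was 685. The cause of these turns was not tested.

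Over all genes, downstream calls numbered 1100 for Pol II (1180 to 1579 with 1 library left out), 610 at a −log10 q of at least 10 and 4804 with no minimum difference. For Tyr1P they numbered 1015 (1142 to 1376) and 5557 with no minimum. For Ser2P they numbered 796 (983 to 1506, the highest without Control replicate 2), 259 at a −log10 q of at least 10, 514 in the 1 kb window and 2633 with no minimum. With the replicate block these counts were 1142, 1068 and 866, the values at the 4 genes were the same, and the smallest p possible was 0.5. Stacks near their limit restrict Pol II and Tyr1P levels, and their effect on summit positions was not tested. Having 2 libraries a group restricts every test.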
